A study of Homo sapiens with 6 samples.

Results

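The myotubularins are a family of proteins built on a protein tyrosine phosphatase fold that act on membrane lipids. The 10 members described here were taken by name from the 38637 genes of the deposited expression table: SBF2, SBF1, MTMR9, MTMR12, MTM1, MTMR1, MTMR2, MTMR6, MTMR3 and MTMR4. All 10 were found, and all 10 passed the filter of a mean of at least 1 TPM (transcripts per 1000000, a level per transcript length) that left 13980 genes. The family was chosen by the measured SBF2 difference in the same comparison, with those results known. The knockdown values of the members are therefore a description, and no p-value of theirs is printed. Calls of members at a threshold, in any fit, are listed as part of that description, and nothing is read from them.

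Active myotubularins remove the phosphate at the 3-position of phosphatidylinositol 3-phosphate (PI3P) and of phosphatidylinositol 3,5-bisphosphate, lipids that mark endosomes and lysosomes. The inactive members lack the catalytic residues and bind active members, whose activity or position they set: SBF1 and SBF2 bind MTMR2, MTMR9 binds MTMR6, and MTMR12 binds MTM1. Loss of MTMR2, SBF1 or SBF2 causes forms of Charcot-Marie-Tooth neuropathy, and loss of MTM1 causes X-linked myotubular myopathy. SBF1 and SBF2 also carry a DENN domain, a module that activates Rab GTPases.

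The cells were HCCLM3-SR, made resistant to the kinase inhibitor sorafenib by raising its dose step by step on HCCLM3, a human hepatocellular carcinoma line. Both groups were kept in 5 µM sorafenib and were transfected with siRNA for 3 days, against the circular RNA cDCBLD2 in the knockdown cells (si-cDCBLD2) and with a control sequence in the control cells (siCTRL). Each group had 3 poly(A) RNA libraries, and the question was which mRNAs change when cDCBLD2 is silenced in resistant cells. The resistant line is 1 derived population, and nothing says whether the 3 libraries of a group came from separate cultures, so p-values measure the spread between these samples only.

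The libraries held at least 17489570 to 23059351 reads, recovered from the ratios of TPM values. TPM per gene does not separate cDCBLD2 from the linear transcripts of its host gene DCBLD2, so the silencing of the circle could not be checked here. The study reported lowered cDCBLD2 by qRT-PCR in its resistant lines. It saw no clear, consistent change of DCBLD2 mRNA or protein across those lines. DCBLD2 itself read 38.5 ± 17.2 TPM (SD, n = 3) after knockdown and 56.9 ± 12.7 TPM in control cells, and the groups overlapped. It was lower in all 3 same-numbered pairs, with log2 ratios of −0.30, −0.91 and −0.68. Its log2 fold change of −0.61 was not called by limma without the replicate block (adjusted p = 0.253) and was called with the block (adjusted p = 0.0139), also after removal of a GC trend (−0.30, adjusted p = 0.0493). In those fits with the block, without and with GC removal, 25.0% and 13.2% of all genes were called lower. Of 10 hepatocyte-lineage markers, 5 had a mean of at least 1 TPM. The keratins KRT8 and KRT18 made up most of their sum, which was 4827 to 5645 TPM in control and 5839 to 7006 TPM in knockdown libraries. HNF4A read 31.3, 27 and 29 TPM in knockdown and 23.7, 23.6 and 22.9 TPM in control libraries, without overlap. Its limma adjusted p was 0.0949 without the block and 0.0196 with it, where 9.94% of all genes were called higher. SERPINA1, AFP and ALB read 1.3 to 3, 0.926 to 2.08 and 0.189 to 1.58 TPM, with overlapping groups. APOA1, APOA2 and FGB stayed near 0. TTR, on 1 to 9 reads per library, read 1.64, 1.55 and 1.3 TPM in knockdown and 0.241, 0.202 and 0.203 TPM in control libraries. The leukocyte genes PTPRC and CD3E and the endothelial genes CDH5 and VWF were at or near 0 as well. Summed leukocyte markers (2 of 4 with a mean of at least 1 TPM, mostly CD68) were 93.5 to 115.1 TPM in control and 102.4 to 130.5 TPM in knockdown libraries. Summed endothelial markers (1 of 3, PECAM1) were 3.70 to 5.73 and 4.50 to 5.18 TPM, and summed fibroblast markers (2 of 4, LUM and COL1A1) were 29.5 to 43.0 and 30.4 to 73.2 TPM in control and knockdown libraries. LUM made up most of the fibroblast sum, and COL1A1 read 11.2, 3.61 and 3.64 TPM after knockdown and 3.35, 1.13 and 2.15 TPM in control cells, without overlap (log2 fold change 1.06, limma adjusted p = 0.196 and 0.0132 with the block). The part of these markers in the results was not tested.

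Because the study examined miR-345-5p as a microRNA bound by cDCBLD2, the reference mRNAs of the members were searched for its seed match. The mature miRNA (RefSeq, GRCh38.p14, chr14:100307876-100307897, plus strand) is shown first, 5′ to 3′, with its seed, bases 2 to 8, in capitals. The sites that follow are 20-base stretches of the sense strand of GENCODE 29 transcripts (GRCh38), each within 1 exon, with the 7-base match GAGTCAG in capitals.
hsa-miR-345-5p: gCUGACUCcuaguccagggcuc
SBF2 coding, chr11:9858372-9858391, minus strand: tgcccctgGAGTCAGccagt
SBF1 coding, chr22:50465977-50465996, minus strand: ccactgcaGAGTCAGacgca
MTMR2 coding, chr11:95845109-95845128, minus strand: acaaggtaGAGTCAGggaag
MTMR3 coding, chr22:30020754-30020773, plus strand: gtcagattGAGTCAGgccac
MTMR3 3′ UTR, chr22:30027741-30027760, plus strand: ctaaagagGAGTCAGtcagt
MTMR4 coding, chr17:58492929-58492948, minus strand: gtttgaagGAGTCAGatggc

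The match stood in the coding sequence of 5 of the 10 members, SBF2, SBF1, MTMR2, MTMR3 and MTMR4, and in the 3′ UTR of MTMR3 alone. Over 11803 genes with a coding sequence, 13.1% held it in the coding sequence and 9.3% in the 3′ UTR. The SBF2 and SBF1 coding sequences are long, at 5547 and 5679 bases, and among genes within 10% of those lengths 40.5% and 39.3% held a match. For MTMR3, MTMR4 and MTMR2 the share among genes of like coding length was 28.2%, 28.5% and 13.4%. For the 5 members without a match it ran from 10.8% to 17.2%. The log2 fold changes of the 5 members with a match ran from −1.09 to 0.14, and those of the 5 without one from −0.58 to −0.12, so the ranges overlapped. A match of these letters is not a measured site.

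In control cells the 10 mRNAs spanned a wide range. SBF1 stood highest at 110.6 ± 4.18 TPM, followed by MTMR2 at 51.1 ± 8.34 TPM, MTMR4 at 25.7 ± 2.49 TPM and MTMR1 at 17.8 ± 0.969 TPM. SBF2 and MTMR3 came next with overlapping ranges, then MTMR12 and MTMR6, and MTM1 and MTMR9 closed the order with overlapping ranges near 3 TPM. After knockdown SBF1, MTMR2, MTMR4 and MTMR1 kept their places, SBF2 moved below MTMR3 and MTMR12, and the ranges of MTMR6, MTMR9 and MTM1 ran into each other.

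**Figure D1:**
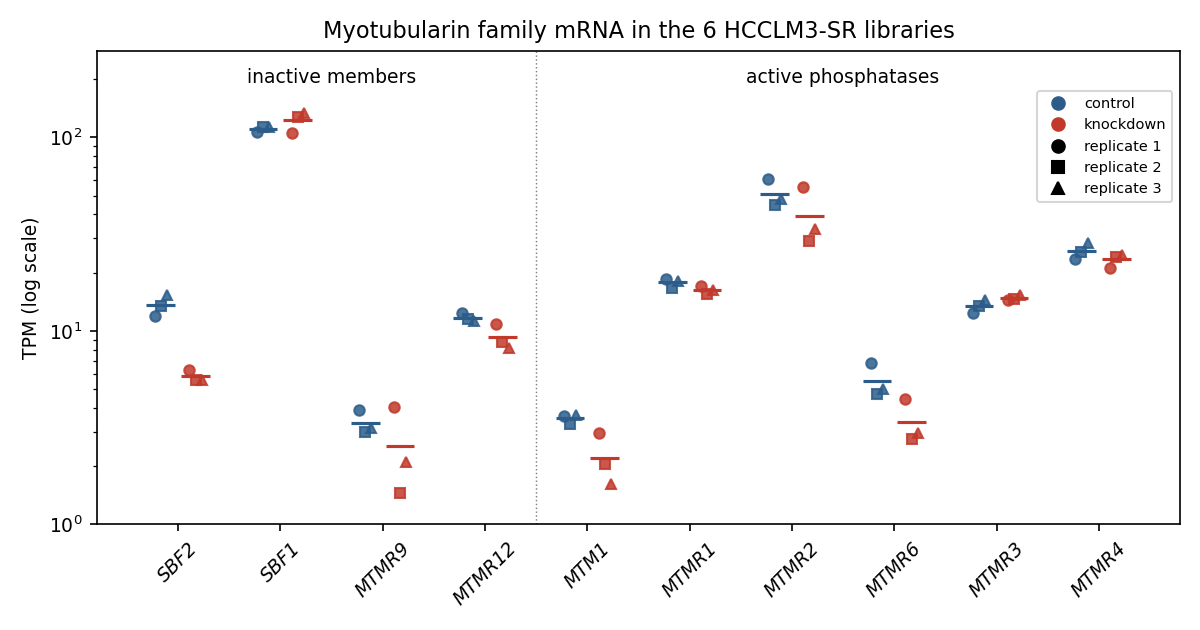
TPM of the 10 members on a log axis in the 3 control (blue) and 3 knockdown (red) libraries, with the replicate number as the symbol and the group mean as a bar. The SBF2 symbols of the groups lie well apart, at 11.9 to 15.4 and 5.57 to 6.31 TPM, while SBF1, MTMR1, MTMR3 and MTMR4 lie close together and the replicate 1 circles of MTMR2, MTMR9 and MTMR6 lie above the other symbols of their group.

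SBF2, also called MTMR13, is an inactive member whose DENN domain acts on RAB28 and RAB21. Its gene spans 515.5 kb on chr11:9778667-10294207 (GRCh38, minus strand). SBF2 mRNA read 6.31, 5.57 and 5.60 TPM in knockdown libraries 1, 2 and 3, and 11.9, 13.5 and 15.4 TPM in control libraries 1, 2 and 3, from 497 to 1401 reads per library. Every knockdown library was below every control library, and the means were 5.83 ± 0.415 and 13.6 ± 1.77 TPM, so the knockdown level was 42.9% of the control level. On the log2(TPM + 1) scale the fold change was −1.09 (SE 0.12). By fold change SBF2 ranked 81 from the lowest among the 13980 genes. The log2 ratios of same-numbered libraries were −0.91, −1.28 and −1.46.

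SBF2-AS1, a noncoding antisense gene, has a span that overlaps an exon of SBF2. Exons of the opposite-strand genes named here were not compared with those of the members. Whether the counting used strand is not given in the sources used here. SBF2-AS1 read 6.39 ± 0.508 TPM after knockdown and 6.85 ± 0.111 TPM in control cells (log2 fold change −0.09, SE 0.10, limma adjusted p = 0.613), and the groups overlapped.

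SBF1, the close paralogue of SBF2 (chr22:50445000-50475024, minus strand), read 105, 127 and 134 TPM in the knockdown and 106, 113 and 113 TPM in the control libraries. The groups overlapped, at 122 ± 15.4 and 111 ± 4.18 TPM, and the log2 fold change was 0.14 (SE 0.10). It became −0.01 once a trend with GC content was removed. The pseudogene SBF1P1 was listed at 0 in all 6 libraries, and an exon of SBF1 overlaps the span of the opposite-strand gene PPP6R2. The ratio of SBF1 to SBF2 was 16.7, 22.9 and 24.0 in the knockdown libraries and 8.92, 8.36 and 7.35 in the control libraries.

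MTMR2, the active partner of both (chr11:95832882-95925315, minus strand), read 55.5, 29.2 and 33.5 TPM after knockdown and 60.6, 44.8 and 48.0 TPM in control cells. Library 1 was the highest of each group, and the groups overlapped. The means were 39.4 ± 14.1 and 51.1 ± 8.34 TPM, with a log2 fold change of −0.41 (SE 0.24, or 0.10 with the replicate number as a block). All 3 same-numbered pairs were lower after knockdown, with log2 ratios of −0.13, −0.62 and −0.52.

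MTMR6 and its inactive partner MTMR9 were among the weakly expressed members. MTMR6, the active phosphatase of the pair (chr13:25246201-25288009, minus strand), read 4.42, 2.75 and 2.97 TPM after knockdown and 6.83, 4.73 and 5.03 TPM in control cells, from 138 to 245 reads. Every knockdown library was below every control library, by a log2 fold change of −0.58 (SE 0.20). MTMR9 (chr8:11284416-11328146, plus strand) read 4.02, 1.46 and 2.11 TPM after knockdown and 3.88, 3.01 and 3.14 TPM in control cells, from 105 to 213 reads. The groups overlapped because knockdown library 1 was the highest of all 6, and the log2 fold change was −0.36 (SE 0.27). The related pseudogene MTMR9LP read 7.92 ± 0.592 and 6.97 ± 1.03 TPM with overlapping groups. Whether it shares reads with MTMR9 was not examined.

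MTM1 and its inactive partner MTMR12 each had knockdown libraries entirely below the control libraries. MTM1 (chrX:150568619-150673322, plus strand) read 2.98, 2.04 and 1.62 TPM against 3.63, 3.29 and 3.69 TPM, a log2 fold change of −0.52 (SE 0.18) from 122 to 255 reads per library. MTMR12 (chr5:32226994-32313009, minus strand) read 10.9, 8.73 and 8.15 TPM against 12.3, 11.5 and 11.2 TPM, a log2 fold change of −0.31 (SE 0.12). MTMR1, the closest relative of MTM1, lies 19.6 kb beyond it (chrX:150692971-150765103, plus strand). Its values were 17.1, 15.5 and 16.2 TPM after knockdown and 18.5, 16.7 and 18.1 TPM in control cells, with overlapping groups and a log2 fold change of −0.12 (SE 0.09).

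MTMR3 and MTMR4 are active members with a FYVE-type domain, and MTMR3 is known for lowering the PI3P used in autophagy. MTMR3 (chr22:29883155-30030866, plus strand) read 14.5, 14.6 and 15.3 TPM after knockdown and 12.4, 13.4 and 14.5 TPM in control cells, a log2 fold change of 0.13 (SE 0.09). An exon of MTMR3 overlaps the span of the opposite-strand gene HORMAD2-AS1. MTMR4 (chr17:58489529-58517905, minus strand) read 21.2, 24.2 and 24.7 TPM against 23.4, 25.5 and 28.3 TPM, a log2 fold change of −0.13 (SE 0.10). Both pairs of groups overlapped.

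Of the 10 members, 8 were lower and 2 higher in value after knockdown, with a median log2 fold change of −0.34 against −0.08 over all genes tested. The groups did not overlap for 4 members, SBF2, MTM1, MTMR6 and MTMR12, all lower, and for no member that was higher. Over all genes, 22.3% did not overlap and were lower and 9.58% were higher. At a limma adjusted p under 0.05, 1 member was called lower, SBF2, and 0 higher, where 0.629% and 0.250% of all genes were called. At a log2 fold change over 1 in size as well, SBF2 was still the 1 member called, where 0.0787% of all genes were called lower and 0.0501% higher. These members were chosen with the contrast known, so nothing is read from these counts. The SBF2 call depended on which library was in the fit. With knockdown library 2 or 3 or any 1 control library left out, 0 members were called lower and 0 of all genes were called. Without knockdown library 1, SBF2 was still called, and members called numbered 6 lower and 1 higher. Of all 13980 genes, 2771 were called lower and 649 higher in that fit, so calls were common throughout. The SBF2 fold change itself stayed between −1.23 and −0.81 over all 19 alternatives.

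With the replicate number of the labels as a block, 5 members were called lower, SBF2, MTMR6, MTMR2, MTMR12 and MTM1, and 0 higher. In that fit 25.0% of all genes were called lower and 9.94% higher, so calls were common throughout the transcriptome.

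Summed over the members, expression was 242.0, 231.3 and 244.7 TPM in the knockdown and 259.2, 249.4 and 260.6 TPM in the control libraries. These sums did not overlap. SBF2, whose difference chose the family, is part of them and the lack of overlap depends on it, so nothing is read from it. The 4 inactive members together gave 139.9 ± 12.4 and 139.3 ± 4.74 TPM, since SBF1 made up most of that sum. The 6 active members gave 99.4 ± 14.4 and 117.2 ± 8.41 TPM, with overlapping groups. The share of SBF2 in the summed TPM was 2.44% ± 0.160 after knockdown and 5.30% ± 0.674 in control cells, and that of SBF1 was 51.1% ± 6.70 and 43.2% ± 2.24. In bulk libraries fewer cells expressing a gene and less RNA per cell cannot be told apart.

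The fold changes of all genes moved with the GC content of the transcript, and the members are placed beside genes of like GC content here as a description. Genes were split into 5 bins of equal size by GC content. In the lowest bin, 29.8% to 41.9% GC, the median log2 fold change was −0.40, and in the highest bin, 59.3% to 86.4%, it was 0.11. MTMR6, MTM1, MTMR2 and MTMR9 have 37.7% to 41.6% GC and belong to the lowest bin. There, 723, 901, 1278 and 1461 of the 2633 genes, the member itself included, were as low or lower. SBF1, with 64.4% GC, belongs to the highest bin and lay near its median. MTMR12 and SBF2 have 44.0% and 44.3% GC, in the bin with a median of −0.25. In that bin 1036 of 2632 genes were as low as MTMR12 or lower and 15 as low as SBF2 or lower, again with the member itself included. The place of SBF2 follows from the choice of the family by the SBF2 difference.

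**Figure D2:**
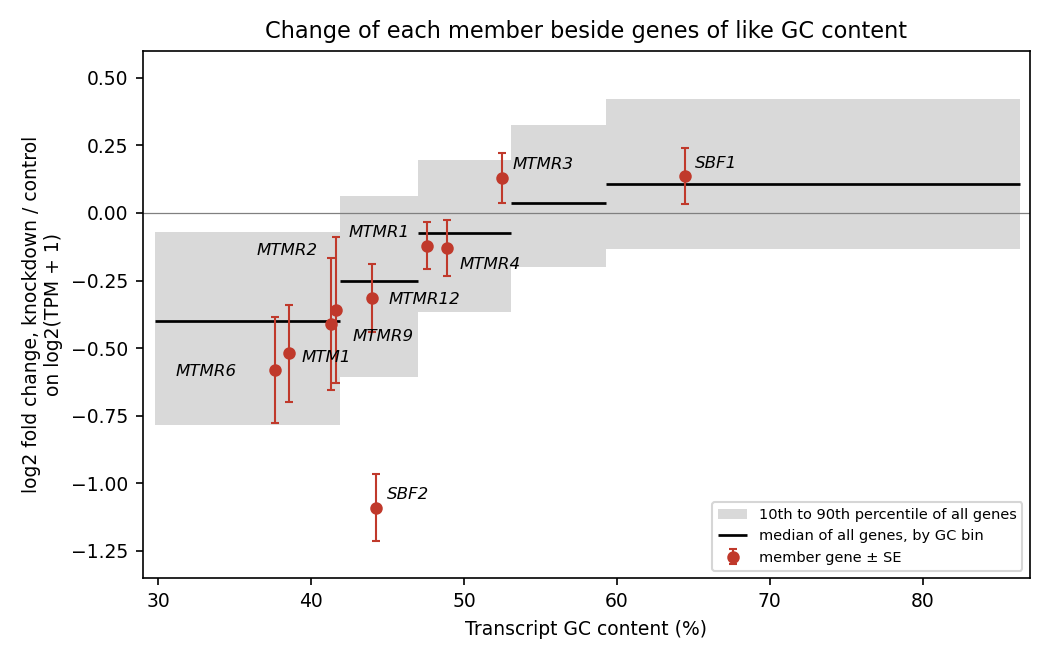
Log2 fold change (knockdown over control, on log2(TPM + 1)) of each member with its SE against transcript GC content in percent, over the 10th to 90th percentile (grey) and median (black) of all genes in each GC bin. Of the 10 members, 9 lie within the grey band of their bin, and SBF2, at −1.09, lies below it.

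With the GC trend taken out of every library, SBF2 kept a log2 fold change of −0.83, which was 75.9% of its value without that step. MTMR6 came to −0.15, MTM1 to −0.10, MTMR2 to −0.05, MTMR12 to −0.04 and MTMR9 to −0.01. The median of the 10 members came to −0.03, beside −0.01 for all genes. No member was then called by limma, against 0.0152% of all genes called lower and 0.0228% higher. With the replicate block added, SBF2 alone was called lower, beside 13.2% of all genes lower and 11.4% higher. Transcript length moved with the changes too, since the bin of the longest transcripts, 5005 bases and over, had a median of −0.26. SBF2 at 7439 bases is in it, as are SBF1, MTMR9, MTMR12, MTMR3, MTMR4 and MTMR6. Removing the length trend left SBF2 at −0.81 and turned MTMR4 to 0.10 and MTMR1 to 0.06. With the replicate block and the length trend removed, 2 members were called lower, SBF2 and MTMR6, and 2 higher, SBF1 and MTMR3, beside 17.1% and 17.9% of all genes.

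**Figure D3:**
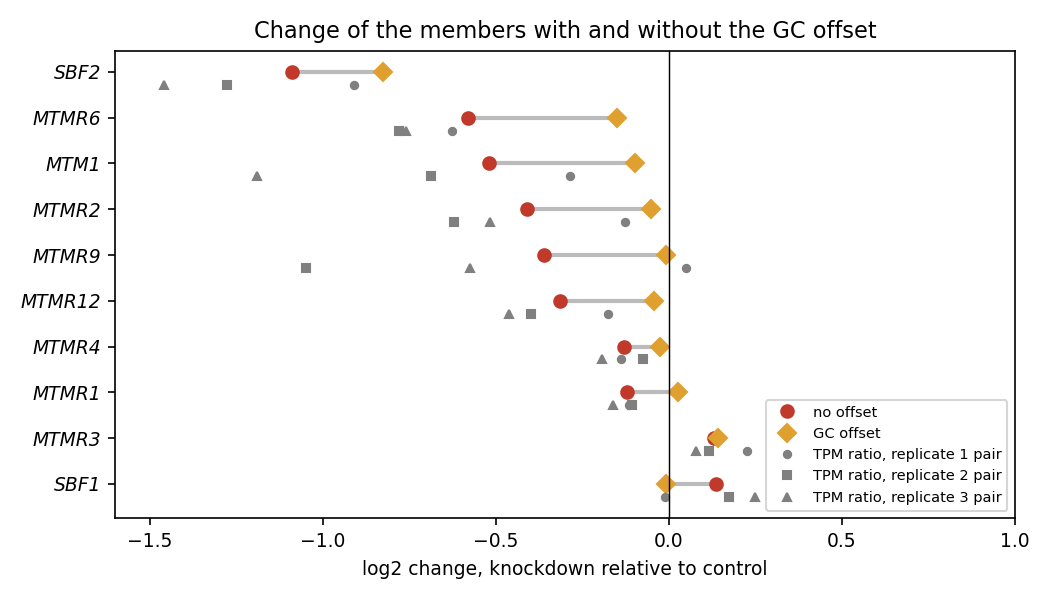
Log2 change of each member (x axis, knockdown relative to control) without an offset (red circles) and after removal of the GC trend (yellow diamonds), on the log2(TPM + 1) scale, with the log2 TPM ratio of each same-numbered pair of libraries in grey. SBF2 stays at −0.83, while the other 9 members lie between −0.15 and 0.14 after removal.

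The replicate number, which the choice of members did not use, was tested as a term of its own with limma. Among the members 1 of 10 was called, MTMR2 (F test adjusted p = 0.0357), where 19.6% of all genes were called. MTMR2 was higher in libraries numbered 1 than in those numbered 2 and 3 by 0.81 on the log2 scale in knockdown cells and by 0.38 in control cells. MTMR6 was higher in libraries numbered 1 by 0.45 (adjusted p = 0.0591) and MTMR9 by 0.56 (adjusted p = 0.131), which did not pass. SBF2 differed by −0.06 (adjusted p = 0.811). What a replicate number marks is not given in the labels.

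Other genes that make, bind or remove the same lipids were read from lists by role, 78 genes in all, of which 70 passed the filter. At a limma adjusted p under 0.05 without the block, 0 were lower and 0 higher. At an unadjusted p under 0.05 there were 21 lower and 2 higher, beside 19.4% and 6.78% of all genes. Limma-voom on the recovered reads called 2 lower and 0 higher, beside 1.72% and 1.29% of all genes. With the replicate block 22 were lower and 4 higher, beside 25.0% and 9.94% of all genes, and with the GC trend removed as well 9 were lower and 9 higher, beside 13.2% and 11.4%. Their median log2 fold change was −0.15, and −0.003 with the GC trend removed. Groups did not overlap for 26 that were lower and 4 that were higher, beside 22.3% and 9.58% of all genes. Calls with the block in the single lists below are to be read against the same 25.0% and 9.94%.

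**Figure D4:**
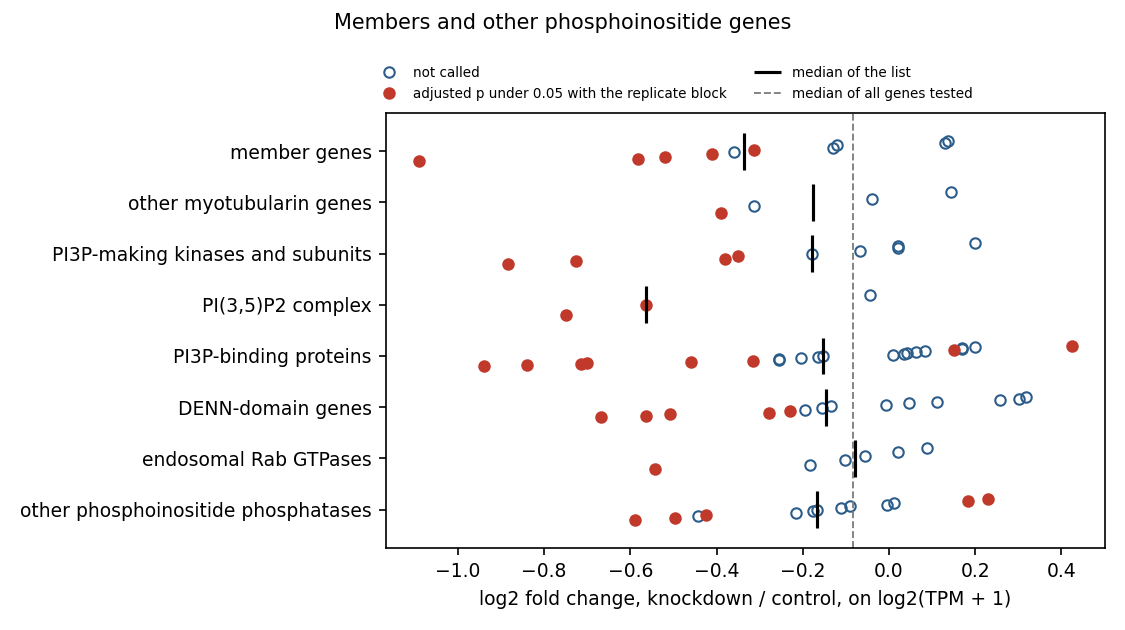
Log2 fold change (x axis, knockdown over control, on log2(TPM + 1)) of the 10 members and of the tested genes of 7 lists, 1 symbol per gene, filled where the limma adjusted p was under 0.05 with the replicate block. Short bars mark each list's median and the dashed line the median of all genes tested, −0.08. Filled symbols lie mostly to the left in every list that has several, and SBF2 is the only gene beyond −1.

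Among other myotubularins, 1 of 4 tested genes was lower and 0 higher with the block, beside 25.0% and 9.94% of all genes. MTMR10, an inactive member, read 7.05 ± 0.796 TPM after knockdown and 9.52 ± 0.459 TPM in control cells (log2 fold change −0.39, limma adjusted p = 0.0191 with the block and 0.104 without). After removal of the GC trend its change was −0.04. MTMR11, also inactive, gave 35.6 ± 4.57 and 32.2 ± 4.81 TPM with no call (adjusted p = 0.119 with the block). MTMR14, a more distant phosphatase of the family, gave 41.5 ± 2.71 and 42.6 ± 2.15 TPM, also with no call (adjusted p = 0.579 with the block).

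Of 9 tested kinases and subunits that make PI3P, 4 were lower and 0 higher with the block, beside 25.0% and 9.94% of all genes. PIK3C2A, a class II kinase, had a log2 fold change of −0.88 (limma adjusted p = 0.0133 with the block and 0.161 without), and after GC removal it was −0.45 (adjusted p = 0.0356 with the block). PIK3C3, the class III kinase that makes most endosomal PI3P, had a log2 fold change of −0.35 (adjusted p = 0.0471 with the block), and its value after GC removal was −0.003. In the complex that makes phosphatidylinositol 3,5-bisphosphate, 2 of 3 genes were lower and 0 higher with the block. The kinase PIKFYVE gave −0.75 (limma adjusted p = 0.0118 with the block and 0.130 without) and −0.39 after GC removal (adjusted p = 0.0304 with the block). The phosphatase FIG4 gave −0.56 (adjusted p = 0.0179 with the block), and −0.29 after GC removal (adjusted p = 0.0539).

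Among 21 PI3P-binding proteins, 6 were lower and 2 higher with the block, close to the 25.0% and 9.94% of all genes. The endosomal tether EEA1 was the lowest, with 3.44 ± 1.93 and 7.37 ± 3.04 TPM and a log2 fold change of −0.94 (limma adjusted p = 0.00481 with the block and 0.162 without). EEA1 has 34.9% GC, and after GC removal its value was −0.50 (adjusted p = 0.00715 with the block). ZFYVE1, a protein of the sites where autophagosomes form, was the highest at 0.42 (adjusted p = 0.0108 with the block), and it was 0.43 after GC removal.

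Of 14 tested DENN-domain genes other than SBF1 and SBF2, 5 were lower and 0 higher with the block, beside 25.0% and 9.94% of all genes. DENND4C had the lowest value, −0.67 (limma adjusted p = 0.0196), and DENND6A the highest of those called, −0.23 (adjusted p = 0.0458). After GC removal they were at −0.35 and 0.15 and neither was called. Of 6 endosomal Rab genes, RAB28 alone was called with the block, with 8.68 ± 1.83 and 13.0 ± 1.87 TPM and a log2 fold change of −0.54 (adjusted p = 0.00781 with the block and 0.116 without). RAB28 kept −0.23 after GC removal (adjusted p = 0.0399 with the block). RAB21 read 9.40 ± 2.70 and 10.0 ± 1.72 TPM. Its log2 fold change was −0.10 (adjusted p = 0.406 with the block), and with the GC trend removed the sign turned to 0.33 (adjusted p = 0.0118 with the block).

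Of 13 other phosphoinositide phosphatases, 3 were lower and 2 higher with the block, close to the 25.0% and 9.94% of all genes. SACM1L, which removes the 4-phosphate of phosphatidylinositol at the endoplasmic reticulum, gave −0.59 (limma adjusted p = 0.0306) and INPP5K, a 5-phosphatase, gave 0.23 (adjusted p = 0.0253). After GC removal the values were −0.18 and 0.14, and neither was called.

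The genes whose centred log2(TPM + 1) profiles over the 6 libraries lay nearest to that of SBF2 were C5, ROR1, WDR35, MTUS1 and LOC728715. Their root mean square distances from SBF2 were 0.0810, 0.0815, 0.123, 0.131 and 0.132 on the log2 scale. C5, a complement component, read 3.51 ± 0.363 TPM after knockdown and 7.67 ± 0.755 TPM in control cells, and ROR1, a receptor tyrosine kinase-like protein, read 6.12 ± 0.443 and 13.7 ± 1.37 TPM. LOC728715 rests on 17 to 47 reads per library. Because the SBF2 profile holds the knockdown difference that chose the family, lower knockdown values of these genes follow from how they were picked. No member of the family was among these 5. The next lowest member, MTMR6, had a log2 fold change of −0.58, so nothing is read from that absence.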

How the data were processed

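The authors deposited TPM per gene, each library summing to 1000000. The submitters' processing notes list fastp 0.20.1, HISAT2 2.1.0, StringTie 2.0 and hg38, without roles. The annotation and strand setting are not given in the sources used here. Members and lists were chosen with earlier results of these data known. Named genes were all members, the lowest and highest called gene of each list with the block, set relatives and partners of members (PIK3C3, PIKFYVE, RAB21, RAB28, MTMR10, MTMR11, MTMR14), overlapping or copy genes, and the 5 genes nearest to SBF2 in profile.

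Log2(TPM + 1) of the 13980 genes that averaged 1 TPM or more was fitted with limma 3.58.1 (R 4.3.3, mean-variance trend, all 6 libraries, Benjamini-Hochberg), after a check on simulated data. An exact test of 3 against 3 libraries cannot go below 0.1. Deviations of same-numbered libraries from their group means correlated at 0.560, 0.343 and 0.362 over genes. Differently numbered libraries were not compared in this way, so whether the numbers pair the libraries was not settled. The replicate block takes same-numbered libraries as pairs because of these correlations, not because of the labels. GC and length offsets removed a loess trend (span 0.5) per library, using GENCODE 29 transcripts (94.2% of tested genes matched).

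TPM are whole-read multiples of a value per gene and library. Ratios between libraries gave whole reads, within 0.02 reads, for 100.0% of 17285 genes, or for 90.34% with the smallest count held under 2000 against 0.02% with library factors moved at random. These read numbers are lower bounds. Figures were drawn with matplotlib 3.10.9.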

Additional observations from a re-analysis of the deposited data

How the results depend on the processing

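Counts of called members lower and higher and of called pathway genes lower and higher, in that order, were 1, 0, 0 and 0 with limma on log2(TPM + 1). A pseudocount of 0.1 TPM, upper-quartile scaling and the length offset left all 4 as they were. All genes called lower and higher numbered 107 and 42, 62 and 59, and 71 and 152 in these fits. With no filter on low values or with the GC offset, members lower fell to 0. All genes called lower and higher were then 1 and 3 of 25278, and 2 and 3 of 13163. The replicate block gave 5, 0, 22 and 4, the GC offset with the replicate block 1, 0, 9 and 9, and the length offset with the replicate block 2, 2, 13 and 15. The shares of all genes called in these fits are given above. Leaving out 1 library at a time gave 0 to 6, 0 to 1, 0 to 20 and 0 to 3, where every count above 0 came from leaving out knockdown replicate 1. In that fit 2771 of all 13980 genes were called lower and 649 higher. Of the alternatives chosen after seeing the data, leaving out replicate 1 of both groups gave 6, 1, 24 and 4. Over all 13980 genes, 3538 were then called lower and 1353 higher. Leaving out replicate 2 or 3 of both groups gave 0 for each, and 0 of all genes. Limma-voom on recovered reads gave 1, 0, 2 and 0, beside 259 lower and 193 higher of 15018 genes. With the replicate block limma-voom gave 5, 2, 22 and 12, beside 3081 lower and 2627 higher of 15018 genes. SBF1 turned to −0.008 with the GC offset, with and without the block, MTMR1 to 0.026 with the GC and 0.055 with the length offset, and MTMR4 to 0.10 with the length offset, likewise in both fits. Members called by the replicate number numbered 1, and 2 with the length offset. The causes were not tested. MTM1, MTMR6 and MTMR9 rest on the fewest reads, 105 to 255 per library.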
